A study of Mus musculus with 6 samples.

Results

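The urea cycle and ammonia handling enzymes were described here as a set of 10 named genes: Cps1, Otc, Ass1, Asl, Arg1, Nags, Gls2, Glud1, Got1 and Gpt. Of these, 9 were measured by at least 1 probe set that the array annotation lists under that symbol alone, out of 18193 genes measured this way, and the brightest probe set on average over the 6 arrays stood for each gene. Gls2, the glutaminase of liver mitochondria, had no such probe set and was not analysed here. Total liver RNA from male mice aged 10 weeks was hybridised to Affymetrix mouse arrays, with 1 array for each of 3 livers labelled L Pex5 -/- (KO) and 3 labelled WT. Pex5 is the receptor that carries enzymes into the peroxisome matrix. The labels give both groups the same mixed background, named Alb-Cre Tac:[Sw]fBR. The albumin promoter drives Cre in hepatocytes, and these bulk livers also hold other cells. Which cells lost Pex5 was not measured. The series title names AMPK, PGC-1 alpha and carbohydrate metabolism. The comparison of KO with WT livers asks how transcript levels differ in livers labelled as Pex5 knockout.

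The urea cycle turns toxic ammonia into urea and runs across 2 compartments of the hepatocyte. Cps1 joins ammonia and bicarbonate to carbamoyl phosphate in mitochondria, and only in the presence of N-acetylglutamate, which Nags makes. Otc, still inside mitochondria, passes the carbamoyl group to ornithine and gives citrulline. In the cytosol, Ass1 joins citrulline to aspartate, Asl splits the product into arginine and fumarate, and Arg1 cleaves arginine into urea and ornithine. Glud1, Got1 and Gpt move amino nitrogen between glutamate, ammonia, aspartate and alanine. The cycle is densest in hepatocytes around the portal vein, while cells around the central vein trap left-over ammonia as glutamine.

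In KO livers, transcripts of 3 cycle enzymes fell: Otc 4.08-fold, Asl 1.89-fold and Arg1 1.52-fold. Those of Cps1 and Ass1 did not pass the test, nor did Nags, Got1 and Gpt. Glud1 passed as higher at the edge of the threshold, on the brighter of its 2 probe sets only. Together 3 of 9 members were lower and 1 was higher (limma, Benjamini-Hochberg adjusted p under 0.05 over all genes), against 9.75% lower and 14.2% higher among all 18193 genes. In either direction 4 of 9 were called, against 24.0% of all genes, and 1 member (Otc) was lower by at least 2-fold, against 1.80% of all genes. The median difference over the members was -0.21, against -0.055 over all genes. Levels are on the log2 scale, a difference is the KO mean less the WT mean of those levels, and each error is named as an SD (3 livers) or as the SE from limma. With no depth in array data, the small number of arrays limits precision.

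Some facts of the whole series bear on these values. Pex5 itself read 9.22 ± 0.11 in KO and 9.04 ± 0.14 in WT livers (SD, n = 3), and no source at hand places its probe sets inside or outside the deleted part, so this value does not check the labels. Probe sets for bacterial control transcripts, pooled over 38 probe sets, averaged 9.36 on KO and 9.87 on WT arrays. Centring the arrays on these transcripts (control centring) adds 0.51 to every difference, and moves the median to 0.31 for the members and 0.46 for all genes. On that scale 5 members were higher (Cps1, Ass1, Nags, Glud1 and Gpt) and 2 were lower (Otc and Asl). Most genes were higher there too, with 12970 of all 18193 called higher and 409 lower. A direction given below thus holds relative to most other genes under the deposited scaling. In bulk liver, fewer cells of a type and less RNA per cell cannot be told apart. Of 6 measured hepatocyte markers, among them Alb and Ttr, none passed the test on the deposited scale, against 24.0% of all genes. Their summed linear level on that scale ran from 96594 to 101431 in KO and from 93210 to 98894 in WT livers. Control centring adds 0.51 to the difference of each of these markers too.

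**Figure D1:**
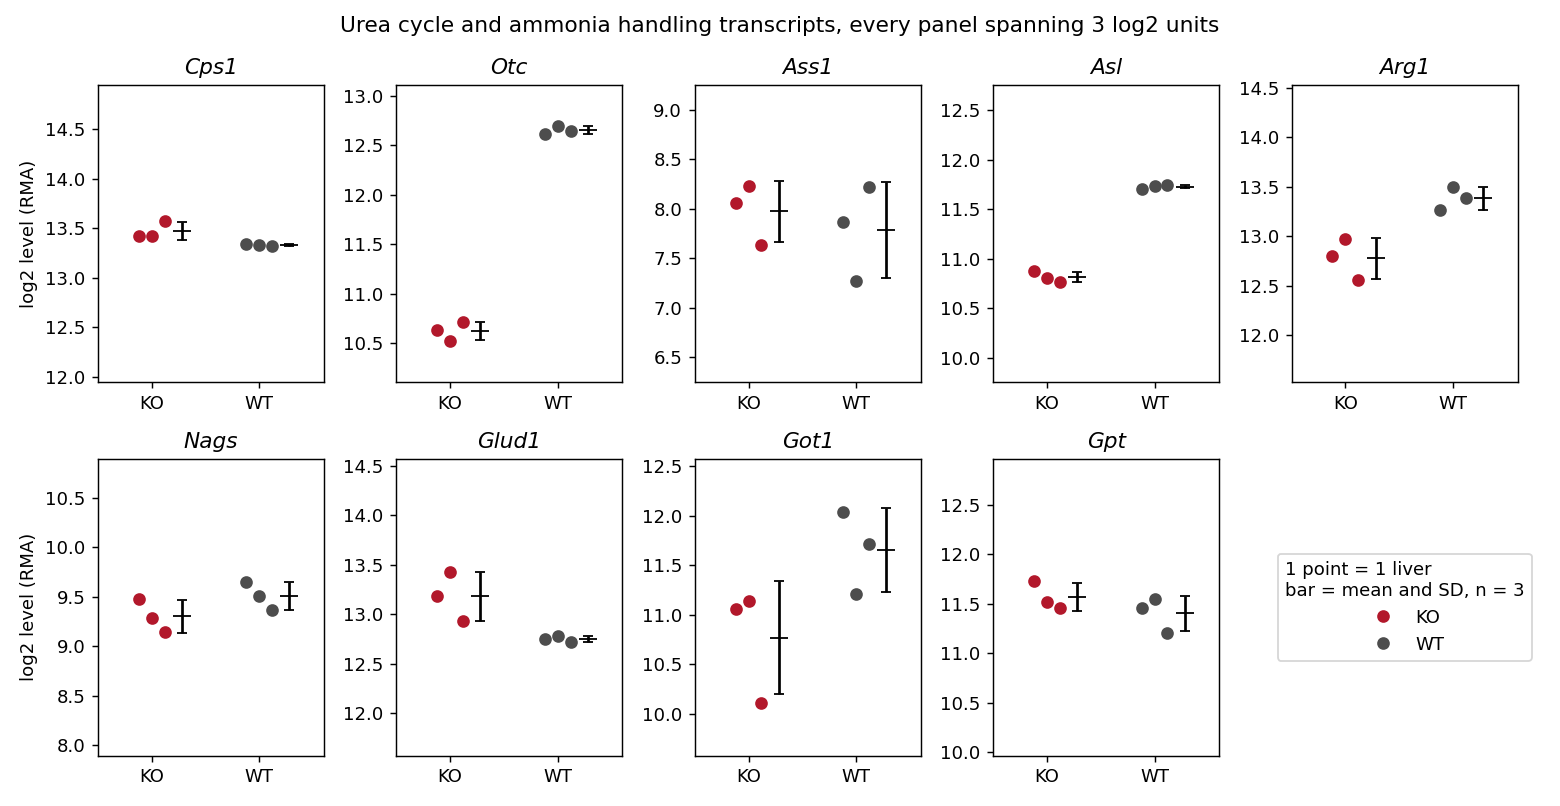
Log2 level (RMA, vertical axis, 3 units in every panel) of the 9 measured members in each liver, KO left and WT right, with the mean and SD of 3 livers. Otc shows the widest gap between the groups, Asl and Arg1 smaller ones, and the KO and WT points of Ass1, Nags and Gpt overlap.

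Cps1, the entry enzyme, was measured by probe set 1455540_at. It read 13.42, 13.43 and 13.58 in KO livers, against 13.34, 13.33 and 13.32 in WT livers. Every KO liver was above every WT liver, yet the gap was small: 0.14 ± 0.09 (SE), with a 95% interval of -0.06 to 0.35 and an adjusted p of 0.270. Nags, which makes the activator of Cps1, read 9.47, 9.29 and 9.14 in KO livers, against 9.65, 9.51 and 9.36 in WT livers. These ranges overlap, and the difference of -0.21 ± 0.12 (SE) did not pass (adjusted p = 0.242). Control centring turned it to 0.31, which passed (adjusted p = 0.0470).

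Otc had the largest difference of the set. Its brightest probe set, 1420525_a_at, read 10.64, 10.53 and 10.72 in KO livers, against 12.62, 12.70 and 12.65 in WT livers. The groups lay far apart and each was tight. The level was 4.08-fold lower in KO (-2.03 ± 0.09, SE, adjusted p = 1.11e-05), and only 85 of all 18193 genes had a more negative difference. Both other Otc probe sets were lower as well, with differences of -2.08 and -1.80. Over all 16 alternatives Otc stayed past the threshold as lower, with adjusted p from 4.12e-07 to 0.000235, and control centring left a difference of -1.51.

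The promoter of Otc is shown because this gene carries the main result, beside that of Car5a, the mitochondrial carbonic anhydrase that supplies bicarbonate to Cps1 and had the largest fall among other nitrogen genes measured. Both run 5′ to 3′ over the 250 bases before the start of the RefSeq transcript in GRCm38.p6, Otc at chrX:10252055-10252304 on the plus strand and Car5a at chr8:121944913-121945162 on the minus strand. Capitals mark AAAGTNCA in Otc, a motif of the type bound by the nuclear receptor HNF4, and CCAAT in Car5a.
Otc: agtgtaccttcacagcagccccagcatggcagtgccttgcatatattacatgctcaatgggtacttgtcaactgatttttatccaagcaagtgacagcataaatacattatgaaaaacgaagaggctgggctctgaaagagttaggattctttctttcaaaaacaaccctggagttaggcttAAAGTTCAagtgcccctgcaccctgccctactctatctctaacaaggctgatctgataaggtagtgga
Car5a: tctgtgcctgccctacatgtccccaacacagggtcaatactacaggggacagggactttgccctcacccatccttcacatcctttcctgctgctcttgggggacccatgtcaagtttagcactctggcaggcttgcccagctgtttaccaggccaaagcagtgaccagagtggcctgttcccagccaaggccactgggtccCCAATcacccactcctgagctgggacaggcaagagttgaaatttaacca
Both strands were searched for 4 motifs, and the matches shown do not overlap. The TATA box (TATAAA) occurs in 12.4% of 32851 promoters of the same length, the core of the cAMP response element (TGACG) in 17.8%, the CCAAT box in 33.8% and the HNF4-type motif in 3.53%. The table held a promoter for 5 of the 10 members. Among those, Otc alone held AAAGTNCA, starting 68 bases before its start, Got1 alone held CCAAT, with 5 matches, and none held the other motifs. The HNF4-type motif was added after the Otc sequence had been read, and a match describes letters only.

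Ass1 was measured poorly by the probe set that the annotation gives to it alone. Probe set 1459937_at read 8.06, 8.24 and 7.63 in KO livers, against 7.87, 7.27 and 8.22 in WT livers. The groups overlap and the livers of each group scatter, so that the interval of the difference is wide (0.19 ± 0.25, SE, 95% interval -0.38 to 0.76, adjusted p = 0.600). Another probe set, 1416239_at, is listed under both Ass1 and the transcribed pseudogene Gm5424, so its signal cannot be given to Ass1 alone. It read 13.74, 13.64 and 13.51 in KO livers, against 13.71, 13.69 and 13.67 in WT livers, a difference of -0.06 ± 0.09 with a 95% interval of -0.28 to 0.16. Under the deposited scaling that interval leaves room for a small change only, in a signal that Ass1 shares with the pseudogene. Control centring adds 0.51 to this difference as to all others.

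Asl, which forms arginine, fell in every KO liver. Probe set 1448350_at read 10.87, 10.80 and 10.77 in KO livers, against 11.71, 11.74 and 11.74 in WT livers. The groups did not overlap, and the level was 1.89-fold lower in KO (-0.91 ± 0.08, SE, adjusted p = 0.000278). On the scale of the bacterial controls it was still lower, by 0.40 (value -0.40, adjusted p = 0.00556).

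Arg1, which releases urea, fell as well. Probe set 1419549_at read 12.80, 12.97 and 12.56 in KO livers, against 13.26, 13.50 and 13.38 in WT livers. All KO livers lay below all WT livers, with a 1.52-fold lower level in KO (-0.61 ± 0.13, SE, adjusted p = 0.0113). Under control centring only -0.09 was left of it (adjusted p = 0.488), and it did not reach the stricter threshold of 0.01.

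A ratio of 2 transcripts within 1 array does not change when whole arrays are rescaled. The 4 ratios given here were chosen after the levels had been seen, and are a description. The log2 ratio of Otc to Cps1 differed by -2.17 between KO and WT livers, with SDs of 0.06 in KO and 0.04 in WT (n = 3). That is a 4.50-fold lower ratio in KO. For Otc to Asl the ratio differed by -1.11, with SDs of 0.12 in KO and 0.03 in WT, a 2.16-fold lower ratio. In an exact two-sided permutation test both gave p = 0.1, the smallest that 3 against 3 livers allow, and 0.133 adjusted over the 4 ratios computed.

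**Figure D2:**
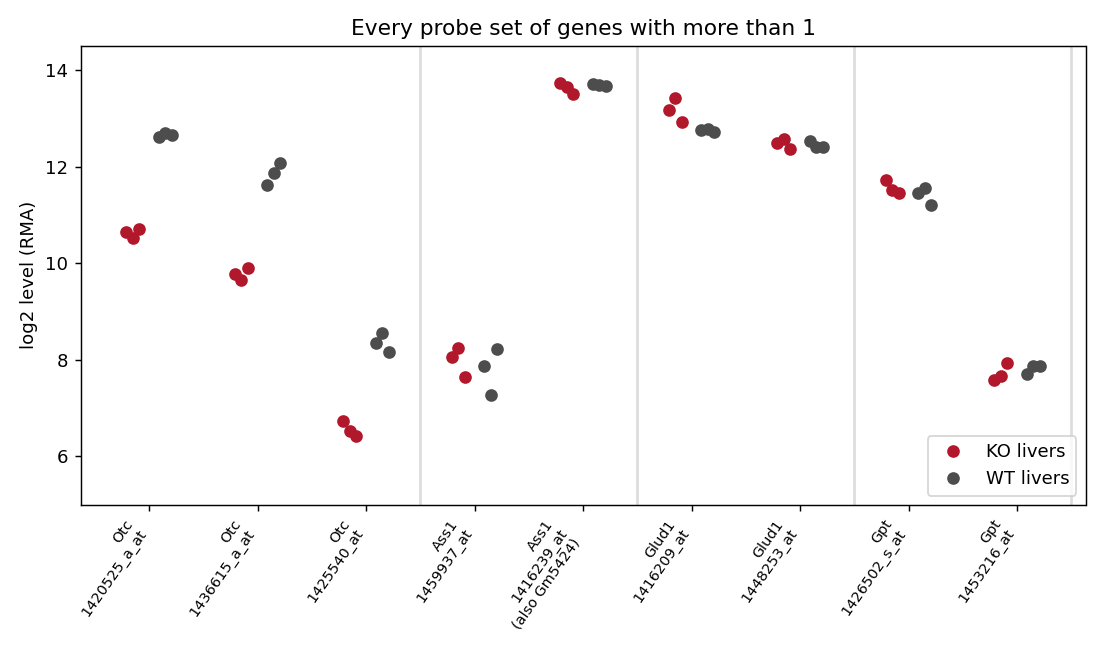
Log2 level (RMA, vertical axis) in KO livers (red, left of each pair) and WT livers (grey) for every probe set of Otc, Ass1, Glud1 and Gpt. All 3 Otc probe sets separate the groups. The bright Ass1 probe set, shared with Gm5424, shows KO livers from 13.51 to 13.74, around the WT livers at 13.67 to 13.71, and Glud1 is higher in KO livers on 1 of its 2 probe sets.

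Glud1, the mitochondrial glutamate dehydrogenase that frees or binds ammonia, gave different answers from its 2 probe sets. The brighter, 1416209_at, read 13.18, 13.42 and 12.93 in KO livers, against 12.75, 12.78 and 12.72 in WT livers. All KO livers were above all WT livers, and the level was 1.35-fold higher in KO (0.43 ± 0.13, SE, adjusted p = 0.0472). The other, 1448253_at, read 12.49, 12.57 and 12.37 in KO livers, against 12.53, 12.42 and 12.40 in WT livers, a difference of 0.03. The call on the brighter probe set was lost under 10 of 16 alternatives. Among them was the removal of any single WT liver (adjusted p of 0.0847, 0.0880 and 0.0939 without replicates 1, 2 and 3), of KO replicate 1 (0.125) or of KO replicate 2 (0.144).

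Got1, the cytosolic aspartate aminotransferase, had a wide spread. Probe set 1450970_at read 11.06, 11.14 and 10.11 in KO livers, against 12.04, 11.21 and 11.72 in WT livers. KO livers were lower without overlap, narrowly at the closest pair, and KO replicate 3 stood about 1 log2 unit below the other KO livers. The difference of -0.89 ± 0.30 (SE) did not pass (adjusted p = 0.0681, 95% interval -1.58 to -0.19). It passed without WT replicate 2 (-1.11, adjusted p = 0.0460), and without KO replicate 3 it was -0.56 (0.145). Its mitochondrial counterpart Got2 read 12.46, 12.47 and 12.26 in KO livers, against 12.50, 12.45 and 12.48 in WT livers, and differed by -0.08 ± 0.10 (SE, adjusted p = 0.584). The log2 ratio of Got1 to Got2 differed by -0.81, with SDs of 0.45 in KO and 0.40 in WT (exact two-sided permutation p = 0.1, 0.133 adjusted).

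Gpt, the cytosolic alanine aminotransferase, read 11.73, 11.51 and 11.46 in KO livers on probe set 1426502_s_at, against 11.46, 11.55 and 11.21 in WT livers. The groups overlap, and the difference of 0.16 ± 0.12 (SE) did not pass (adjusted p = 0.359). The other Gpt probe set, 1453216_at, differed by -0.09, and the mean of both by 0.03. The mitochondrial form Gpt2 read 11.91, 12.11 and 12.31 in KO livers, against 10.73, 11.22 and 11.56 in WT livers. Every KO liver was above every WT liver, and Gpt2 rose 1.92-fold (0.94 ± 0.21, SE, adjusted p = 0.0146). Each of the 4 Gpt2 probe sets was higher, by 0.94 to 1.18. On the brightest it no longer passed on leaving out KO liver 2 (adjusted p = 0.0544) or KO liver 3 (0.0534). The log2 ratio of Gpt2 to Gpt differed by 0.78, with SDs of 0.34 in KO and 0.55 in WT (exact two-sided permutation p = 0.2). The smallest p that 3 against 3 livers allow in this test is 0.1, so it cannot decide whether the forms differ in response.

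Over the set, KO livers lay wholly below WT livers in 4 members (Otc, Asl, Arg1 and Got1), against 22.6% of all genes. They lay wholly above in 2 (Cps1 and Glud1), against 22.1% of all genes. Counted in either direction, the groups did not overlap in 6 of 9 members, against 44.8% of all genes.

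Of 31 other genes that carry, feed or drain nitrogen around the cycle, 27 were measured. Among these 9 were lower and 5 higher, against 9.75% and 14.2% of all genes. Their median difference was -0.085, against -0.055 over all genes. The higher genes numbered 3 on leaving out KO liver 2 and 2 on leaving out KO liver 3. Over all genes those fits gave 1497 and 1956 higher. Under control centring 2 were lower (Car5a and Prodh) and 17 higher, against 409 lower and 12970 higher of all 18193 genes.

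**Figure D3:**
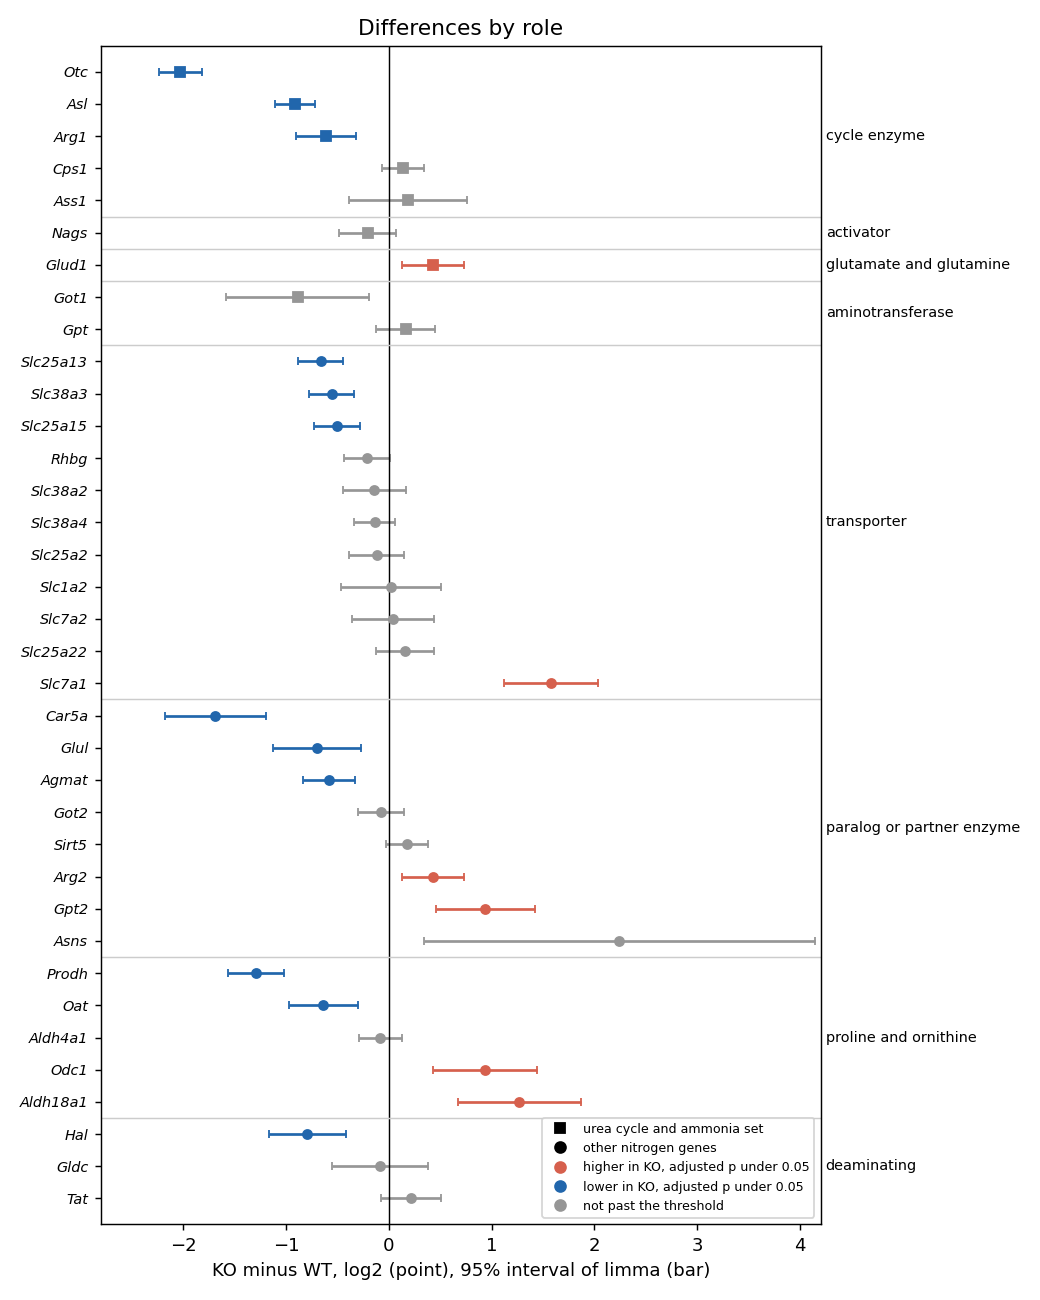
Difference of KO minus WT (log2, horizontal axis, point) with limma's 95% interval (bar) for the 9 members (squares) and 27 other nitrogen genes (circles), grouped by role. Blue genes were lower and red genes higher at an adjusted p under 0.05, with Otc at -2.03 and Car5a at -1.69 farthest to the left.

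Of 8 measured paralogs or partner enzymes 3 were lower and 2 higher, and of 11 transporters 3 were lower and 1 higher. Among all genes 9.75% were lower and 14.2% higher. Car5a read 8.75, 7.89 and 8.02 in KO livers, against 9.88, 10.04 and 9.80 in WT livers. The groups lay more than 1 log2 unit apart, and Car5a was 3.22-fold lower in KO (-1.69 ± 0.21, SE, adjusted p = 0.00125). Slc25a15, the carrier that exchanges ornithine for citrulline across the inner membrane, read 11.57, 11.73 and 11.73 in KO livers, against 12.13, 12.30 and 12.12 in WT livers (-0.51 ± 0.10, adjusted p = 0.00849). Slc25a13, citrin, which exports the aspartate used by Ass1, was 1.58-fold lower (-0.66 ± 0.10, adjusted p = 0.00249). On the bacterial control scale neither carrier was called, with 0.0077 for Slc25a15 and -0.15 for Slc25a13. The plasma membrane glutamine transporter Slc38a3 was also lower (-0.56 ± 0.09, adjusted p = 0.00475). Slc7a1, a carrier of arginine and other cationic amino acids, rose 2.98-fold, with levels from 6.98 to 7.34 in KO livers, against 5.10 to 5.85 in WT livers (1.58 ± 0.20, adjusted p = 0.00123). Of its 3 probe sets 2 were called higher, and 1421533_at differed by 0.02. The means of that probe set (4.16 in KO and 4.14 in WT) lay under 4.90, the background set by olfactory receptor genes. The WT mean of 1454992_at (4.52), which was called higher, lay under it too, while its KO mean (6.31) lay above. The other 7 of 11 transporters did not pass on their brightest probe sets, among them Slc7a2, the main cationic amino acid carrier of the liver (0.04 ± 0.17). On their second brightest probe sets 3 of those passed as lower: Slc38a4 (-0.65, adjusted p = 0.0196), Slc38a2 (-0.43, 0.0333) and Slc1a2 (-0.86, 0.00397). With that choice of probe set 12 of the 27 other nitrogen genes were lower, against 9 on the brightest. Of all genes 8.16% were lower with that choice.

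Glul, the glutamine synthetase of cells around the central vein, read 11.41, 11.09 and 11.62 in KO livers, against 11.73, 12.20 and 12.31 in WT livers. No KO liver reached the WT range, and the level was 1.63-fold lower (-0.70 ± 0.19, SE, adjusted p = 0.0294). It no longer passed on leaving out WT liver 2 (adjusted p = 0.0802), WT liver 3 (0.0754), KO liver 1 (0.0801) or KO liver 2 (0.105), while the other Glul probe set differed by -0.93 and passed. Agmat, which hydrolyses agmatine to urea, was lower (-0.58 ± 0.11). Arg2, the mitochondrial arginase, was called higher (adjusted p = 0.0472), but both group means (4.66 in KO and 4.23 in WT) lay under 4.90, the background set by olfactory receptor genes, so no fold is given. The call was lost with centring on the array median (0.0607) and without WT replicate 1 (0.101), WT replicate 2 (0.119), KO replicate 1 (0.144) or KO replicate 3 (0.138). Asns, which makes asparagine, read 10.23, 10.25 and 10.17 in KO livers, against 8.74, 9.47 and 5.70 in WT livers. KO livers were tight and above all WT livers, and WT replicate 3 was far below the other WT livers. The difference of 2.24 ± 0.82 did not pass (adjusted p = 0.0835), and passed at 1.11 without WT replicate 3 (0.00919) and at 2.99 without WT replicate 2 (0.0348).

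Enzymes that link ornithine and proline moved in both directions. Prodh, which breaks proline down, read 9.32, 8.96 and 9.11 in KO livers, against 10.42, 10.52 and 10.32 in WT livers. It was 2.45-fold lower without overlap (-1.29 ± 0.12, SE, adjusted p = 0.000270). Oat, the ornithine aminotransferase, was lower (-0.64 ± 0.14, adjusted p = 0.0162). Aldh18a1, which starts the synthesis of ornithine and proline from glutamate, rose 2.41-fold (1.27 ± 0.26, adjusted p = 0.0106). Its other 4 probe sets were also called higher, but their WT means lay under the background of 4.90, so no sizes are given for them. Odc1, which turns ornithine into putrescine, rose 1.92-fold (0.94 ± 0.22, adjusted p = 0.0181), a call lost without KO replicate 2 (0.0726) or KO replicate 3 (0.0579). Of 3 measured amino acid deaminating enzymes, histidase, Hal, was lower (-0.79 ± 0.16, adjusted p = 0.0109), and Tat and Gldc did not pass.

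Among 12 measured of 13 regulators linked to hepatocyte amino acid enzymes, 2 were higher and 1 lower, against 14.2% and 9.75% of all genes. Atf4, the transcription factor of the amino acid stress response, read 11.33, 11.31 and 11.08 in KO livers, against 10.68, 10.46 and 10.22 in WT livers (0.79 ± 0.14, adjusted p = 0.00533). Nr1h4, the bile acid receptor FXR, was higher too (0.66 ± 0.12, adjusted p = 0.00582). The coactivator Ppargc1a was the lower one (-1.72 ± 0.16). Hnf4a, which encodes HNF4, read 11.80, 11.91 and 11.92 in KO livers, against 11.57, 11.81 and 11.92 in WT livers, and did not pass (0.11 ± 0.11). Klf15, a regulator of amino acid breakdown, differed by -0.51 (adjusted p = 0.0975), and passed without WT replicate 1 (-0.72, 0.0159) and with the replicate number as a block (-0.51, 0.0448). On leaving out WT liver 1, Cebpa passed as lower (-0.45, adjusted p = 0.0390), and on leaving out WT liver 3, Foxa2 did (-0.39, 0.0423). The lower regulators thus numbered 3 of 12 without WT liver 1 and 2 of 12 without WT liver 3. Of all 18193 genes, the same fits called 1679 and 1547 lower.

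Markers of liver position and of other cells were read beside these genes, and their part in the results was not tested. Hal (periportal) and Glul, Oat, Slc1a2 and Rhbg (pericentral) are also among the other nitrogen genes. Of the hepatocyte markers, Tat is too, and Hnf4a is among the regulators. The marker counts thus repeat some values of those lists. Each count below stands beside 9.75% lower and 14.2% higher among all genes. Of 6 measured periportal markers 3 were lower (Cyp2f2, Pck1 and Hal) and 2 higher (Aldh1b1 and Hsd17b13), and the summed linear level ran from 13752 to 14500 in KO and from 25993 to 27744 in WT livers. Of 8 pericentral markers 3 were lower (Glul, Oat and Cyp1a2) and none higher, with sums of 25304 to 29908 in KO and 35819 to 40791 in WT livers. None of 7 macrophage markers passed, with sums of 3507 to 4583 in KO and 2650 to 5972 in WT livers. Sinusoidal endothelium had 1 higher (Lyve1) and 2 lower (Clec4g and Kdr) of 6, with sums of 1661 to 1877 in KO and 2016 to 2452 in WT livers, while the mean log2 levels overlapped (7.77 to 7.94 in KO and 7.61 to 7.90 in WT livers). Stellate cells and fibroblasts had 2 lower (Reln and Dcn) of 6, with sums of 3263 to 3774 in KO and 4216 to 4425 in WT livers and overlapping mean log2 levels (8.05 to 8.34 in KO and 8.27 to 8.40 in WT livers). Cholangiocyte markers had 1 lower (Krt19) of 5, of which 3 were under background, with sums of 132 to 143 in KO and 151 to 183 in WT livers. None of 4 lymphocyte markers passed (sums of 298 to 434 in KO and 229 to 462 in WT livers), and none of 3 neutrophil markers (94.5 to 194 in KO and 119 to 279 in WT livers).

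The genes most like the cycle enzymes in pattern were found by the distance of their centred levels over the 6 arrays from the mean centred level of Cps1, Otc, Ass1, Asl and Arg1, which differed by -0.64 between KO and WT livers. Ass1 entered this mean through 1459937_at, the probe set that measured it poorly and scattered within each group. Of 11998 genes above background outside the set and its companions, the nearest were Hoga1, a mitochondrial aldolase of hydroxyproline breakdown, and Ghrhr, the receptor of growth hormone-releasing hormone, both at a root mean square distance of 0.047 log2 units. Ext1 (0.054), which builds heparan sulphate, Asgr1 (0.054), a part of the asialoglycoprotein receptor, and Gpc4 (0.054), a glypican, came next. Arg1 (0.12) and Asl (0.15) themselves lay farther from that mean, and Cps1 (0.41), Ass1 (0.50) and Otc (0.70) farther still, so the mean pattern stands for none of the 5 enzymes closely. The distance is a description over 6 arrays, in which the difference between the groups is most of the pattern.

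**Figure D4:**
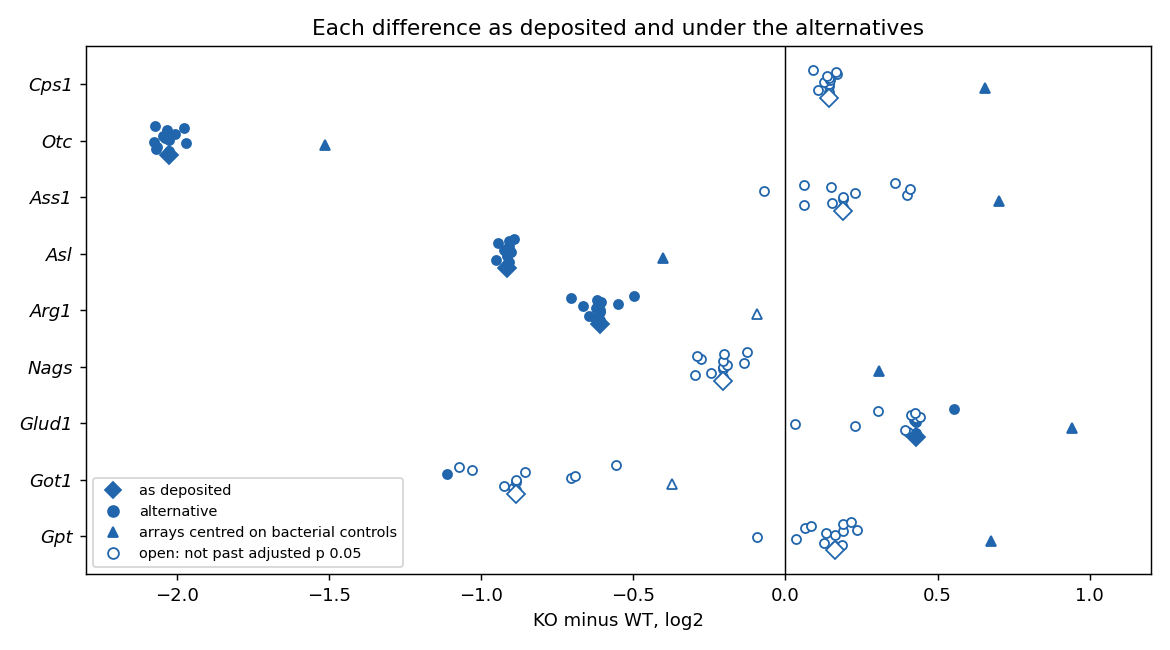
Difference of KO minus WT (log2, horizontal axis) of each member as deposited (diamonds) and under 15 alternatives, or 14 for genes with 1 probe set (circles, with triangles for arrays centred on bacterial controls), with filled symbols for an adjusted p under 0.05. Otc and Asl stay filled throughout, Arg1 is open only on the control scale at -0.09, and Glud1 is mostly open.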

How the data were processed

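The deposited values are log2 levels that the authors computed with RMA, as the submitters' processing notes name it with no version; RMA corrects background, equalises array distributions and summarises probes. The log2 scale was read from the values. RMA removes changes shared by most transcripts. Groups and replicate numbers come from the titles, and the design text calls the arrays biological replicates.

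Of 45101 probe sets, 34945 had 1 symbol (932 had several), covering 18193 genes, and the brightest on average stood for its gene. KO and WT were compared with limma 3.58.1 in R 4.3.3 (lmFit, eBayes, two-sided), adjusted by Benjamini-Hochberg over all genes at 0.05, without a filter. Background (4.90) was the 95th percentile over 38 olfactory receptor genes, by their mean. The naming rule covered all members, called genes of the nitrogen and regulator lists (up to 12 by size), direct paralogs, 5 like genes and up to 3 called markers. Genes of these lists named beyond it, called or not, were chosen after their values were seen. Members and lists were chosen with earlier results of these data known. The fit was tested on simulated data of 18193 genes drawn with the real spread. Of 67, 67 and 66 genes changed by 0.5, 1 and 2 on the log2 scale, it recovered 28.4%, 82.1% and 100%. Far fewer genes were changed there than the 4363 called in the livers, so these rates may not hold for these data.
Alternatives changed the scaling, probe set choice, dim-gene filter, variance model, array weights, threshold, replicate block or left out 1 liver. The probe set shared by Ass1 and Gm5424 and the within-array ratios were added after the data were seen.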

Additional observations from a re-analysis of the deposited data

How the results depend on the processing

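The lower calls of Otc and Asl held under all alternatives run (16 for Otc and 15 for Asl, which has 1 probe set), with differences from -2.08 to -1.51 for Otc and -0.95 to -0.40 for Asl. As deposited, 3 members were lower and 1 higher. The higher count was 0 with quantile normalization, with centring on the array median, with the mean of probe sets, with the second brightest probe set and at an adjusted p under 0.01, and 5 with centring on the bacterial controls. Leaving out 1 liver gave 0 to 1 higher and 3 to 4 lower members. Among the 27 other nitrogen genes the 5 higher became 17 and the 9 lower became 2 with centring on the bacterial controls, and 1 was higher at an adjusted p under 0.01. Leaving out 1 liver gave 2 to 6 higher (3 without KO replicate 2 and 2 without KO replicate 3) and 8 to 9 lower. Of the regulators 6 were higher with control centring, 2 were lower with the replicate block (Klf15 joined at an adjusted p of 0.0448), and 1 to 3 were lower when 1 liver was left out (3 without WT replicate 1, 2 without WT replicate 3). Over all genes 2589 were higher and 1774 lower, against 12970 and 409 with control centring, 1285 and 732 at 0.01, and 1497 to 2424 and 888 to 1679 when 1 liver was left out. The lowest were without KO replicate 2 (1497 and 888), KO replicate 1 (1604 and 984) and KO replicate 3 (1956 and 1156). Of called genes 59.3% were higher as deposited, 51.8% with quantile normalization, 50.3% with centring on the array median and 96.9% with control centring. Among members, other nitrogen genes and regulators called on either scale, with control centring Nags (0.31), Slc25a15 (0.0077), Slc25a2 (0.40), Slc38a2 (0.37), Slc38a4 (0.38), Rhbg (0.30), Got2 (0.44), Aldh4a1 (0.43) and Nr3c1 (0.46) turned positive. Without a call on either scale Gldc (0.43), Foxa2 (0.30), Cebpa (0.18), Cebpb (0.17) and Klf15 (0.0024) did too. Slc1a2 was -0.86 on its second brightest probe set. The shift of 0.51 that centring adds sets those turns. The causes of the other changes were not tested. Replicate numbers are shared between groups. Deviations of same-numbered livers correlated at 0.10, -0.018 and 0.11 over genes, and those of other KO and WT pairs at -0.19 to 0.12. With 3 livers per group, these values cannot decide whether the numbers pair livers. The replicate block gave 3 lower and 1 higher member, with an adjusted p of 0.000235 for Otc, 0.00229 for Asl, 0.0143 for Arg1 and 0.0462 for Glud1.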
